A study of Chromochloris zofingiensis with 6 samples.

Results

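The 22 IDs with the prefix CzMTg, out of 15364 gene IDs in the deposited count table, are described here one by one in the order of their numbers. The prefix is read as the mitochondrial genome of Chromochloris zofingiensis, an oil-rich green alga, as in the published gene names of this species. The files do not say so, and they pair no ID with a gene name, so no gene name or product is given. RNA-seq was done on strain ATCC 30412 grown for 15 days in the dark on 30 g/L glucose at 25 °C, either with 10 mg/L levofloxacin (levofloxacin, 3 libraries) or without it (control, 3 libraries). Glucose, darkness, strain and day of harvest were shared by both groups. Whether the 3 libraries of a group came from separate cultures is not given in the sources used here, so the p-values speak to the spread among these libraries, part of which may be technical.

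Mitochondrial genomes of green algae encode core subunits of the respiratory chain, which passes electrons from food molecules to oxygen, and RNAs of the mitochondrial ribosome. Neighbouring mitochondrial genes are often copied into RNA as one long precursor that is then cut into separate transcripts, so levels of neighbours can be set by cutting and decay as well as by copying. Levofloxacin is a fluoroquinolone, a class of antibiotics that blocks the bacterial topoisomerases gyrase and topoisomerase IV, which relieve twist in DNA. In dark cultures fed with glucose, respiration is the main source of ATP.

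The libraries held 28482776 to 33005815 assigned reads with levofloxacin and 29311743 to 36223195 in controls, of which 7470 to 12010 with levofloxacin and 8422 to 9846 in controls fell on the 22 mitochondrial IDs. All 22 passed the filter on low counts, CzMTg00057 only through its levofloxacin libraries. Values are given as CPM (counts per 1e6 reads after TMM scaling of the libraries), as FPKM (counts also divided by gene length, as the authors deposited them) where different IDs are compared, or as the share of a library's mitochondrial reads. Summed over the 22 IDs, the level was 262, 226 and 367 CPM in levofloxacin replicates 1, 2 and 3, against 369, 220 and 250 CPM in control replicates 1, 2 and 3. The groups overlapped (285 ± 73.1 CPM with levofloxacin and 280 ± 78.5 CPM in controls, SD, n = 3; two-sided exact permutation p = 0.80, and the smallest possible with 3 and 3 libraries is 0.10). Levofloxacin replicate 3 had the highest CPM of its group in 20 of the 22 IDs, and control replicate 1 had the highest of its group in 20 of the 22. Control replicate 1 also had the most chloroplast reads, 111 per 1e6 assigned reads, against 15.0 to 26.5 in the levofloxacin libraries and 60.4 and 21.8 in the other controls. The part of the chloroplast reads was not tested. In bulk RNA, fewer copies of the mitochondrial genome per cell and less RNA per copy cannot be told apart.

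Mitochondrial transcripts changed with levofloxacin in both directions, while their sums overlapped between the groups. In edgeR's quasi-likelihood F test, at a Benjamini-Hochberg adjusted p under 0.05 over 14236 tested IDs, 6 of the 22 were higher and 5 lower. That is 50% of them, against 22.1% of all tested IDs (10.1% higher and 12.1% lower). By at least 2-fold, 6 rose and 3 fell, against 2.51% and 5.06% of all tested IDs (7.57% in both directions). The median absolute log2 fold change was 1.00 over the mitochondrial IDs and 0.30 over all tested IDs. The fold change was positive in 13 IDs and negative in 9. CPM of the groups did not overlap in 13 IDs, 8 higher and 5 lower, against 45.3% of all tested IDs (22.4% higher, 22.9% lower). The count of calls moved with the libraries included. It was 1 higher and 3 lower without levofloxacin replicate 1 (0.746% and 0.983% of all tested IDs), and the same numbers without levofloxacin replicate 3 (0.711% and 0.962%). It was 6 and 3 without levofloxacin replicate 2 (3.33% and 2.71%), and with 1 control left out it was 10 and 5 (replicate 1; 12.2% and 13.1%), 6 and 5 (replicate 2; 14.3% and 16.4%) or 3 and 3 (replicate 3; 3.83% and 4.34%).

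**Figure D1:**
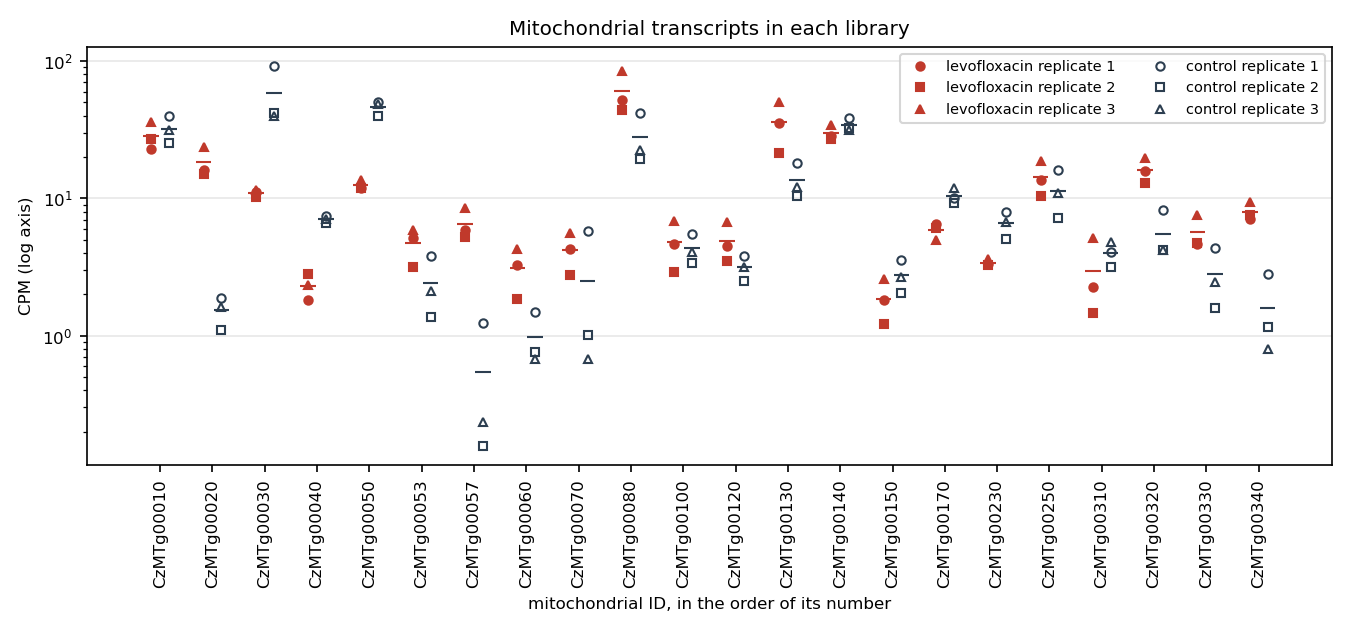
CPM (log axis) of each mitochondrial ID, in the order of its number, with filled symbols for the 3 levofloxacin libraries, open symbols for the 3 controls and a line at each group's mean. The levofloxacin symbols lie above all controls for CzMTg00020 and below all controls for CzMTg00030, CzMTg00040 and CzMTg00050.

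At the start of the numbering a transcript near its control level stood next to one that rose 12.1-fold. CzMTg00010, with a coding length of 1197 bases, had 23.1, 26.9 and 36.1 CPM with levofloxacin, against 39.6, 25.4 and 31.3 CPM in controls. The groups overlapped (log2 fold change -0.16 ± 0.21 SE; edgeR, adjusted p = 0.60). CzMTg00020, of 681 bases, had 16.2, 15.2 and 23.7 CPM with levofloxacin, against 1.87, 1.10 and 1.62 CPM in controls. Each levofloxacin library lay above each control by a wide margin (log2 fold change 3.59 ± 0.27 SE; edgeR, adjusted p = 0.0014). It made up 6.44 ± 0.265% of mitochondrial reads with levofloxacin and 0.552 ± 0.0838% in controls (SD, n = 3). Per length it was the 4th most abundant of the 22 with levofloxacin, at 27.4 ± 7.11 FPKM, and the 20th in controls, at 2.19 ± 0.426 FPKM.

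The next 3 IDs fell together. CzMTg00030, the longest of the 22 with 2292 bases, had 11.2, 10.2 and 11.6 CPM with levofloxacin, against 92.0, 42.2 and 40.0 CPM in controls. Control replicate 1 stood apart, and the groups did not overlap (log2 fold change -2.40 ± 0.32 SE, edgeR, adjusted p = 0.0073). CzMTg00040, of 435 bases, had 1.81, 2.82 and 2.32 CPM with levofloxacin, against 7.45, 6.61 and 7.07 CPM in controls (log2 fold change -1.60 ± 0.21 SE, edgeR, adjusted p = 0.0073). Its controls lay close to each other, and all levofloxacin libraries were under them. CzMTg00050, of 1506 bases, had 11.9, 11.9 and 13.7 CPM with levofloxacin, against 50.2, 39.8 and 48.4 CPM in controls (log2 fold change -1.88 ± 0.13 SE, edgeR, adjusted p = 0.0011). Both groups of CzMTg00050 were tight and far apart. Together these 3 IDs held 9.48%, 11.0% and 7.52% of mitochondrial reads in the levofloxacin libraries, against 40.6%, 40.3% and 38.2% in the controls. CzMTg00030 alone held 3.16% to 4.51% of mitochondrial reads with levofloxacin and 16.0% to 25.0% in controls. Exact 95% binomial intervals ran from 2.85% to 5.01% with levofloxacin and from 15.2% to 25.8% in controls, and cover counting error only. The calls of CzMTg00020, CzMTg00030, CzMTg00040 and CzMTg00050 passed in all 17 alternatives tried, each left-out library included (highest adjusted p over edgeR, DESeq2 and limma 0.0198, 0.0475, 0.0479 and 0.0152, in that order).

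**Figure D2:**
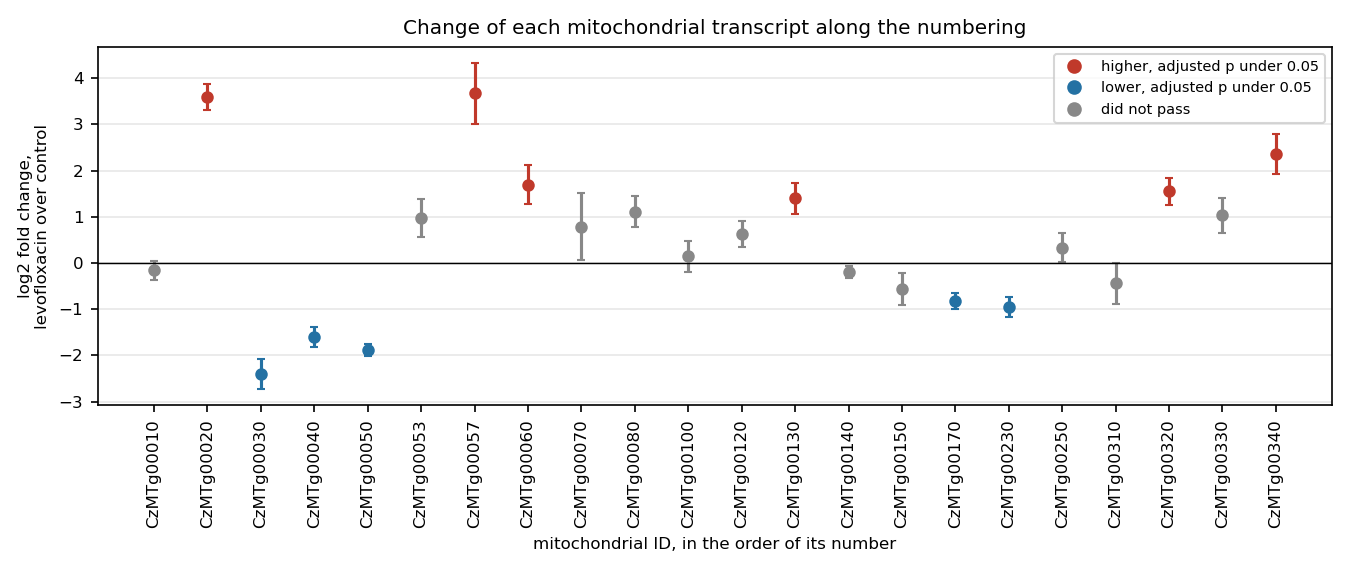
Log2 fold change of levofloxacin over control (y axis) for each mitochondrial ID in the order of its number; bars are 1 SE from edgeR, with red for IDs that rose, blue for IDs that fell and grey for those that did not pass. The 3 blue points from CzMTg00030 to CzMTg00050 lie next to CzMTg00020 at 3.59, and the 8 IDs from CzMTg00053 to CzMTg00130 lie above 0, of which CzMTg00100 turns negative without control replicate 2 or levofloxacin replicate 3.

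After CzMTg00050 the sign turned and stayed positive over 8 consecutive IDs, 3 of which passed. CzMTg00053, of 1110 bases, had 5.12, 3.15 and 5.93 CPM with levofloxacin, against 3.82, 1.36 and 2.12 CPM in controls, and the groups overlapped (log2 fold change 0.97 ± 0.40 SE; edgeR, adjusted p = 0.12). CzMTg00057, of 363 bases, had 173, 173 and 277 reads or 5.90, 5.25 and 8.47 CPM with levofloxacin, against 33, 6 and 8 reads or 1.24, 0.157 and 0.236 CPM in controls, where it was the least abundant of the 22 both in CPM and per length. Its log2 fold change was 3.67 ± 0.65 (SE; edgeR, adjusted p = 0.012), and 5.05 without control replicate 1, which held most of the control reads. Its call was lost without levofloxacin replicate 1 (adjusted p = 0.053, edgeR) or 3 (0.059). CzMTg00057 passed the filter on low counts only through its levofloxacin libraries, so its high level there is what let it be tested. CzMTg00060, of 396 bases, had 3.27, 1.85 and 4.28 CPM with levofloxacin, against 1.50, 0.758 and 0.678 CPM in controls. The lowest levofloxacin library was close above the highest control (log2 fold change 1.70 ± 0.43 SE; edgeR, adjusted p = 0.030). This call was lost without control replicate 3 (adjusted p = 0.094, edgeR), levofloxacin replicate 1 (0.095) or levofloxacin replicate 3 (0.12).

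The result for CzMTg00070, of 798 bases, rested on 1 control library. It had 4.30, 2.76 and 5.56 CPM with levofloxacin, against 5.76, 1.02 and 0.678 CPM in controls, so control replicate 1 lay above every levofloxacin library and the other controls below all of them. Over all libraries the difference was 0.79 ± 0.73 on the log2 scale (SE; edgeR, adjusted p = 0.46), and without control replicate 1 it was 2.30 (adjusted p = 0.0083). With any other library left out CzMTg00070 did not pass (edgeR, adjusted p = 0.45 to 0.77). CzMTg00080, of 1794 bases and with the most reads of the 22 on average, had 51.9, 44.2 and 85.0 CPM with levofloxacin, against 42.1, 19.3 and 22.6 CPM in controls. All levofloxacin libraries lay above all controls, the lowest by a small margin, and the test was just missed (log2 fold change 1.11 ± 0.34 SE; edgeR, adjusted p = 0.052). It passed in 7 of the 17 alternatives, among them DESeq2 (adjusted p = 0.0053) and the fit without control replicate 1 (edgeR, adjusted p = 0.010). It did not pass with any other library left out (edgeR, adjusted p = 0.082 to 0.17). Nor did it pass with RLE (0.055), upper-quartile (0.060) or mitochondrial-total scaling (0.077, all edgeR). It held 20.8 ± 2.03% of mitochondrial reads with levofloxacin and 9.76 ± 1.46% in controls (SD, n = 3). Without control replicate 1 CzMTg00053 also passed (log2 fold change 1.45; edgeR, adjusted p = 0.024). With any other library left out CzMTg00053 did not pass (edgeR, adjusted p = 0.12 to 0.31).

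Inside the same positive run, CzMTg00100, of 882 bases, had 4.64, 2.91 and 6.85 CPM with levofloxacin, against 5.54, 3.37 and 4.10 CPM in controls. Its groups lay over each other (log2 fold change 0.15 ± 0.34 SE; edgeR, adjusted p = 0.76), and the sign was negative without control replicate 2 (-0.0015) or levofloxacin replicate 3 (-0.20). CzMTg00120, of 654 bases, had 4.47, 3.52 and 6.69 CPM with levofloxacin, against 3.82, 2.51 and 3.18 CPM in controls (log2 fold change 0.63 ± 0.29 SE; edgeR, adjusted p = 0.15). Levofloxacin replicate 2 lay within the control range. CzMTg00130, of 972 bases, rose, with 35.2, 21.3 and 50.6 CPM with levofloxacin, against 18.2, 10.4 and 12.0 CPM in controls (log2 fold change 1.40 ± 0.33 SE; edgeR, adjusted p = 0.025). Levofloxacin libraries were spread widely but none reached down to the controls. This call was lost without control replicate 3 (adjusted p = 0.087, edgeR), levofloxacin replicate 1 (0.081) or levofloxacin replicate 3 (0.089). CzMTg00130 was the 2nd most abundant ID per length with levofloxacin, at 37.4 ± 15.6 FPKM, and the 8th in controls, at 13.5 ± 3.12 FPKM. The 8 IDs of this run held 42.8 ± 4.93% of mitochondrial reads with levofloxacin and 19.4 ± 2.50% in controls (SD, n = 3).

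The numbering went on with 4 IDs of negative sign, of which the last 2 fell by less than 2-fold. CzMTg00140, the shortest ID with 222 bases, was the most abundant per length in both groups, at 137 ± 19.2 FPKM with levofloxacin and 151 ± 8.55 FPKM in controls (SD, n = 3). It had 28.3, 26.9 and 34.4 CPM with levofloxacin, against 38.3, 32.4 and 31.7 CPM in controls, and the groups overlapped (log2 fold change -0.19 ± 0.13 SE; edgeR, adjusted p = 0.32). CzMTg00150, of 354 bases, had few reads, with 1.81, 1.21 and 2.57 CPM with levofloxacin, against 3.56, 2.04 and 2.65 CPM in controls (log2 fold change -0.55 ± 0.34 SE; edgeR, adjusted p = 0.27). CzMTg00170, of 228 bases, fell, with 6.55, 6.12 and 4.98 CPM with levofloxacin, against 9.99, 9.25 and 11.8 CPM in controls (log2 fold change -0.81 ± 0.18 SE; edgeR, adjusted p = 0.020). Per length it was the 5th most abundant with levofloxacin (26.2 ± 3.67 FPKM) and the 2nd in controls (44.7 ± 5.84 FPKM). CzMTg00230, of 921 bases, fell, with 3.31, 3.24 and 3.64 CPM with levofloxacin, against 8.01, 5.04 and 6.72 CPM in controls (log2 fold change -0.95 ± 0.22 SE; edgeR, adjusted p = 0.023). Levofloxacin libraries were nearly equal to each other in CzMTg00230, and every control lay above them. The calls of CzMTg00170 and CzMTg00230 were lost without control replicate 3 and without any levofloxacin library (adjusted p = 0.063 to 0.090 for CzMTg00170 and 0.068 to 0.087 for CzMTg00230, edgeR). They were also lost with libraries scaled to their mitochondrial total (adjusted p = 0.26 and 0.18, edgeR). There their log2 fold changes were -0.83 ± 0.39 and -0.96 ± 0.41 (SE), so the changes were nearly the same and the SE larger.

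At the end of the numbering 3 IDs again shared a positive sign. Before them CzMTg00250, of 1941 bases, had 13.7, 10.3 and 18.8 CPM with levofloxacin, against 16.0, 7.24 and 10.9 CPM in controls (log2 fold change 0.33 ± 0.32 SE; edgeR, adjusted p = 0.47). CzMTg00310, of 303 bases, had 2.25, 1.46 and 5.14 CPM with levofloxacin, against 4.04, 3.16 and 4.80 CPM in controls (log2 fold change -0.44 ± 0.44 SE; edgeR, adjusted p = 0.49). Both overlapped between the groups, and levofloxacin replicate 3 of CzMTg00310 stood above all controls while its other levofloxacin libraries stood below them. Without levofloxacin replicate 3 the log2 fold change of CzMTg00310 was -1.11 (edgeR, adjusted p = 0.096). CzMTg00320, of 1569 bases, rose, with 15.8, 12.9 and 19.8 CPM with levofloxacin, against 8.24, 4.21 and 4.18 CPM in controls (log2 fold change 1.55 ± 0.30 SE; edgeR, adjusted p = 0.015). CzMTg00330, of 432 bases, had 4.64, 4.76 and 7.61 CPM with levofloxacin, against 4.34, 1.59 and 2.45 CPM in controls (log2 fold change 1.03 ± 0.38 SE; edgeR, adjusted p = 0.087). Its groups did not overlap, with control replicate 1 just under the lowest levofloxacin library, and it passed without that control (log2 fold change 1.49; edgeR, adjusted p = 0.017). CzMTg00330 passed in 3 of the 17 alternatives, and with no other library left out (edgeR, adjusted p = 0.13 to 0.27). CzMTg00340, of 672 bases, rose, with 7.03, 7.61 and 9.38 CPM with levofloxacin, against 2.81, 1.15 and 0.796 CPM in controls (log2 fold change 2.36 ± 0.43 SE; edgeR, adjusted p = 0.013). With control replicate 1 left out, the log2 fold change of CzMTg00340 was 3.03. Without levofloxacin replicate 1 or 3 the calls of CzMTg00320 (adjusted p = 0.059 and 0.069, edgeR) and CzMTg00340 (0.053 and 0.062) were lost, and that of CzMTg00320 also without control replicate 3 (0.056). CzMTg00320 to CzMTg00340 held 10.5%, 11.2% and 10.0% of mitochondrial reads in levofloxacin libraries, against 4.17%, 3.16% and 2.97% in controls.

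The make-up of mitochondrial reads differed between the groups along most of the numbering. Shares of mitochondrial reads did not overlap between the groups in 17 of the 22 IDs, 11 higher and 6 lower with levofloxacin, where CPM did not overlap in 13. Counts over the mitochondrial total did not overlap in 16.8% of all tested IDs (4.69% higher, 12.1% lower). That is not a like baseline, since the total is made of the 22 IDs themselves and varied within each group. By CPM, 45.3% of all tested IDs did not overlap. Shares sum to the whole, so a fall in one raises the others, and they are a description without a test. The 6 IDs that rose held 31.8%, 28.3% and 31.7% of mitochondrial reads in levofloxacin libraries, against 9.19%, 8.06% and 7.81% in controls. The 5 that fell held 13.2%, 15.2% and 9.87% with levofloxacin, against 45.5%, 46.8% and 45.6% in controls. Shares by these calls repeat what chose the IDs and add no evidence. The 5 IDs with the most reads in a library took 59.0% to 62.6% of its mitochondrial reads with levofloxacin and 69.6% to 72.3% in controls. In 2 IDs, picked after their values were seen, shares in a single group were close between replicates whose levels were not. CzMTg00057 held 2.25%, 2.32% and 2.31% of mitochondrial reads in the levofloxacin libraries while its CPM ran from 5.25 to 8.47. Its shares in controls were not close, at 0.335%, 0.0712% and 0.0943%. In the controls CzMTg00130 held 4.95%, 4.71% and 4.81% while its CPM ran from 10.4 to 18.2. With levofloxacin its shares were wider apart, at 13.4%, 9.40% and 13.8%. Scaling each library to its mitochondrial total called 9 IDs, 6 higher and 3 lower, against 1.39% and 4.62% of all tested IDs, and all 9 were among the 11. These percentages are not a like baseline either, since the scaling follows the 22 IDs.

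**Figure D3:**
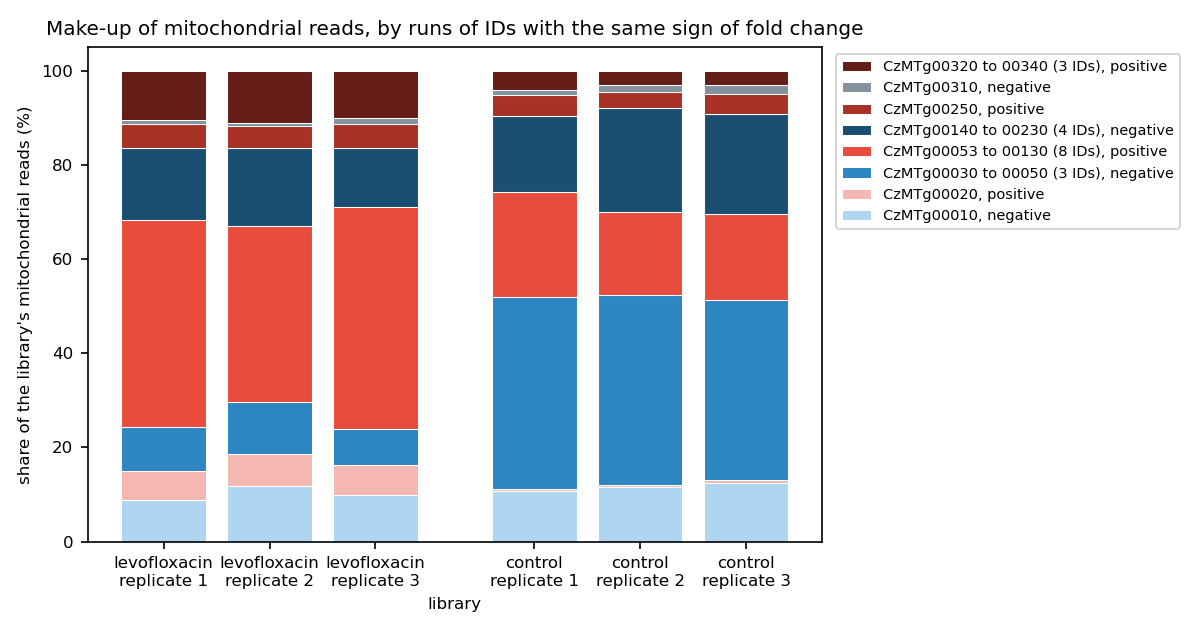
Share of each library's mitochondrial reads (y axis, percent) taken by runs of consecutive IDs with the same sign of fold change, stacked from CzMTg00010 at the bottom to CzMTg00340 at the top; levofloxacin libraries are on the left and controls on the right. The run CzMTg00030 to CzMTg00050 takes 7.52% to 11.0% with levofloxacin and 38.2% to 40.6% in controls, and the run CzMTg00053 to CzMTg00130 takes 37.5% to 47.2% with levofloxacin and 17.7% to 22.3% in controls.

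Whether neighbours moved together or apart was tested on the log2 ratio of each ID to the ID before it, which, apart from the prior count, does not depend on how libraries are scaled. The ratio differed between the groups in 11 of 21 mitochondrial pairs (limma on differences of log2 CPM with a prior count of 2, Benjamini-Hochberg adjusted p under 0.05 over 14214 neighbouring pairs of the whole table), against 18.1% of all pairs. Each pair shares an ID with the next, so the 11 are not independent. Of the 21 pairs, 15 lie at most 10 apart in number, and 9 of the 11 are among them. The deposited counts hold no CzMTg IDs beyond the 22, and pairs further apart in number need not be neighbours in the genome.

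CzMTg00020 and CzMTg00030 moved apart so far that their order turned over. Per length, CzMTg00030 had 4.87 ± 0.371 FPKM and CzMTg00020 27.4 ± 7.11 FPKM with levofloxacin, against 24.4 ± 10.6 and 2.19 ± 0.426 FPKM in controls (SD, n = 3). The log2 ratio of CPM of CzMTg00030 over CzMTg00020 was -0.53, -0.57 and -1.03 with levofloxacin, against 5.57, 5.19 and 4.57 in controls. That is a difference of -5.82 ± 0.29 (SE; limma, adjusted p = 0.00043) on the log2 scale, or 56.5-fold. CzMTg00020 over CzMTg00010 had a mean log2 ratio of -0.65 ± 0.16 with levofloxacin and -4.34 ± 0.12 in controls (SD, n = 3; difference 3.70 ± 0.18 SE; limma, adjusted p = 0.00043). CzMTg00053 over CzMTg00050 had -1.43 ± 0.40 with levofloxacin and -4.33 ± 0.57 in controls (SD, n = 3; difference 2.89 ± 0.34 SE; limma, adjusted p = 0.0080). This last call was lost without levofloxacin replicate 3 (limma, adjusted p = 0.056). CzMTg00020 and CzMTg00053, on either side of the block that fell, had a positive fold change. Of the 7 pairs with opposite signs of fold change 6 passed, and of the 14 with the same sign 5 passed. A ratio difference is nearly the log2 fold change of the second ID minus that of the first, so opposite signs favour passing. This split is a description and adds no evidence. CzMTg00250 over CzMTg00230 (difference 1.27 ± 0.25 SE; limma, adjusted p = 0.021) and CzMTg00320 over CzMTg00310 (2.19 ± 0.42 SE; adjusted p = 0.019) moved upward between IDs of opposite sign. CzMTg00140 over CzMTg00130 fell by 1.54 ± 0.27 on the log2 scale (SE; limma, adjusted p = 0.016). That call was lost without control replicate 3 (limma, adjusted p = 0.057), levofloxacin replicate 1 (0.070) or levofloxacin replicate 3 (0.075). The calls of CzMTg00250 over CzMTg00230 and of CzMTg00320 over CzMTg00310 were lost without control replicate 3 or any one levofloxacin library (limma, adjusted p = 0.051 to 0.089 and 0.061 to 0.076). CzMTg00310 over CzMTg00250, also of opposite sign, passed only without control replicate 1 (difference -1.23; limma, adjusted p = 0.041). With all libraries its adjusted p was 0.090 (limma).

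Neighbours of the same sign could also change by unequal amounts. CzMTg00057 over CzMTg00053 had a mean log2 ratio of 0.48 ± 0.26 with levofloxacin and -2.39 ± 0.70 in controls (SD, n = 3; difference 2.86 ± 0.41 SE; limma, adjusted p = 0.011). CzMTg00060 over CzMTg00057 had -1.10 ± 0.33 with levofloxacin and 1.16 ± 0.83 in controls (difference -2.26 ± 0.47 SE; limma, adjusted p = 0.023). Both ratios rest on the 33, 6 and 8 control reads of CzMTg00057, which entered the test through its levofloxacin libraries, and neither was tested with at least 10 counts asked of every library. The first call was lost without any one levofloxacin library (limma, adjusted p = 0.051 to 0.067), and the second without control replicate 3 or any one levofloxacin library (0.074 to 0.093). Smaller shifts passed for CzMTg00100 over CzMTg00080 (-1.04 ± 0.21 SE; limma, adjusted p = 0.022), CzMTg00130 over CzMTg00120 (0.76 ± 0.21 SE; adjusted p = 0.044) and CzMTg00340 over CzMTg00330 (1.39 ± 0.35 SE; adjusted p = 0.035). Without control replicate 3 or any one levofloxacin library these calls were lost too (limma, adjusted p = 0.069 to 0.089, 0.078 to 0.16 and 0.073 to 0.12), and that of CzMTg00130 over CzMTg00120 also without control replicate 2 (0.057). Inside the block that fell, neither ratio passed. CzMTg00040 over CzMTg00030 was -2.24 ± 0.38 with levofloxacin and -2.92 ± 0.61 in controls (SD, n = 3; difference 0.69 ± 0.35 SE; limma, adjusted p = 0.21). CzMTg00050 over CzMTg00040 was 2.42 ± 0.32 with levofloxacin and 2.70 ± 0.10 in controls (difference -0.28 ± 0.22 SE; limma, adjusted p = 0.42). The pair CzMTg00170 and CzMTg00230, both lower, had a ratio difference of -0.11 ± 0.26 (SE; limma, adjusted p = 0.81), and their numbers are 60 apart. A ratio that did not pass does not show that the IDs moved alike. With 1 control left out the passing pairs numbered 12 (replicate 1), 10 (replicate 2) and 4 (replicate 3), against 19.2%, 27.1% and 3.10% of all pairs. With 1 levofloxacin library left out they numbered 3 (replicate 1), 4 (replicate 2) and 2 (replicate 3), against 1.15%, 2.55% and 0.126%. The pairs of CzMTg00020 with CzMTg00010 and with CzMTg00030 passed in each of these.

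**Figure D4:**
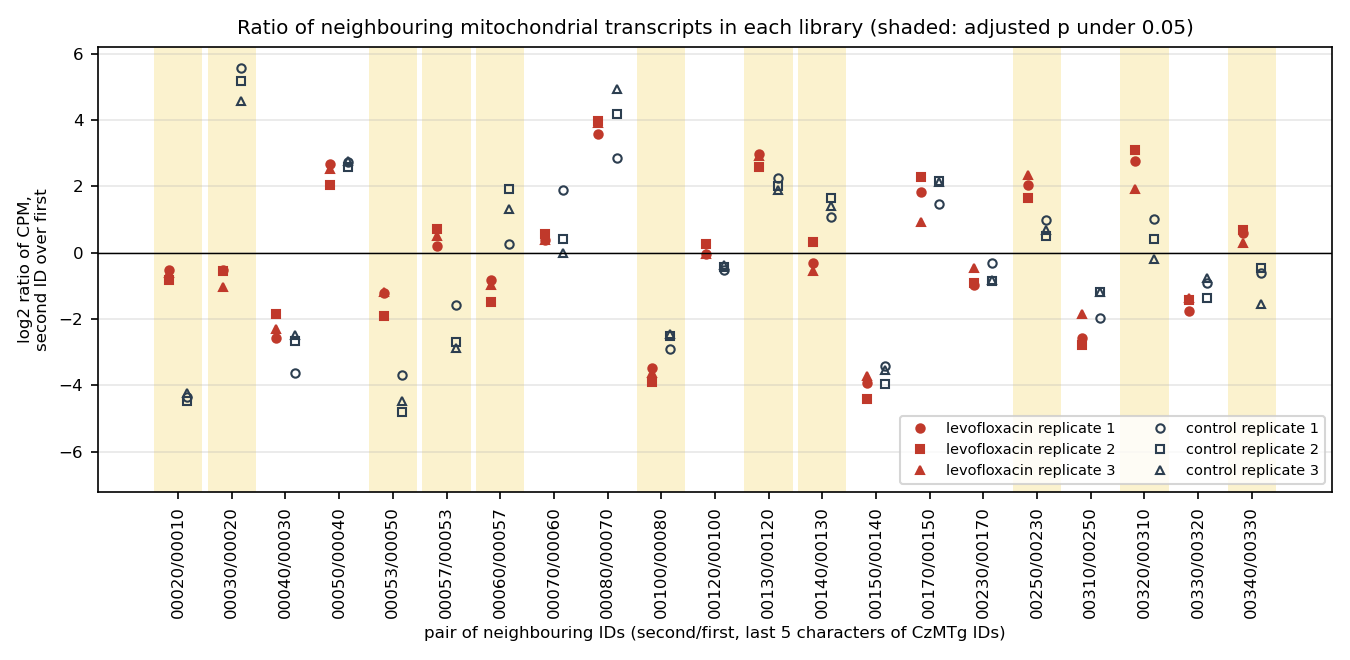
Log2 ratio of CPM of each mitochondrial ID over the ID before it (y axis) in the 3 levofloxacin libraries (filled) and the 3 controls (open), for the 21 pairs in the order of the numbering; shaded pairs had an adjusted p under 0.05 in limma. For CzMTg00030 over CzMTg00020 the levofloxacin libraries lie from -1.03 to -0.53 and the controls from 4.57 to 5.57.

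Runs of neighbours with the same call were 3: CzMTg00030 to CzMTg00050 (lower), CzMTg00057 and CzMTg00060 (higher), and CzMTg00170 and CzMTg00230 (lower). The other 4 called IDs, CzMTg00020, CzMTg00130, CzMTg00320 and CzMTg00340, had no called ID next to them in the same direction. Among the 21 pairs 14 had the same sign of fold change and 7 opposite signs. The share of same-sign pairs and the number of such runs over the whole table were not computed. These counts are therefore a description and do not show that neighbours moved together more than other pairs. The counting is not stated to use strand, so reads of overlapping or antisense IDs cannot be told apart, and whether any of these neighbours overlap could not be checked without coordinates. Spearman's rho across the 22 IDs was -0.03 between coding length and log2 fold change and -0.31 between mean log2 CPM and log2 fold change. Both are descriptions across IDs that share libraries. All 22 lengths are multiples of 3, from 222 to 2292 bases, so they are read as coding lengths.

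Levels per length spanned 36.5-fold between the highest and the lowest of the 22 means with levofloxacin and 108-fold in controls. In order of mean FPKM the leading 5 with levofloxacin were CzMTg00140, CzMTg00130, CzMTg00080, CzMTg00020 and CzMTg00170, and in controls CzMTg00140, CzMTg00170, CzMTg00050, CzMTg00010 and CzMTg00030. Neighbours in the levofloxacin order from CzMTg00130 to CzMTg00010 lay between 37.4 ± 15.6 and 24.4 ± 5.74 FPKM (SD, n = 3) and lay within each other's spread. CzMTg00030 was 20th with levofloxacin, at 4.87 ± 0.371 FPKM, and 5th in controls, at 24.4 ± 10.6 FPKM. CzMTg00057 was 7th with levofloxacin, at 18.3 ± 4.89 FPKM, and last in controls, at 1.40 ± 1.48 FPKM.

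Replicate spread was wider among mitochondrial IDs than over the table, without matching for level. These spreads are not separate, since levofloxacin replicate 3 and control replicate 1 each had the highest CPM of their group in 20 of the 22. The median coefficient of variation of CPM was 27.9% with levofloxacin and 29.2% in controls for mitochondrial IDs, against 8.35% with levofloxacin and 15.8% in controls over all tested IDs. The spread was smaller with levofloxacin in 13 of the 22, and in 10737 of 14234 tested IDs over the table. For the other organelle, 25 of 73 chloroplast IDs passed the filter on low counts, which an ID can pass through its higher group alone. The signs of these 25 therefore describe a selected set. Of the 25 tested chloroplast IDs 6 fell, against 12.1% of all tested IDs, and 22 had a negative fold change, against 7099 of 14236. Their median coefficient of variation was 49.5% with levofloxacin and 74.1% in controls. The difference between the organelles was not tested.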

How the data were processed

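RNA was sequenced from 3 levofloxacin and 3 control samples. Per the submitters' processing notes, the tools were HISAT2 2.0.6 and HTSeq 0.6.1. The build, the annotation and the use of strand were not given in the sources used here. The authors deposited raw read counts per gene ID and FPKM values. For 14451 IDs, all 22 mitochondrial ones included, a single length per ID and total per library gave the deposited FPKM values from the counts, and these lengths are the coding lengths printed. The members and lists were chosen with earlier results of these data known, and all 22 CzMTg IDs are named.

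For the whole table, R 4.3.3 and edgeR 4.0.16 were used on the counts, with filterByExpr (1128 IDs left out and 14236 kept), TMM, and the quasi-likelihood test with Benjamini-Hochberg adjustment at 0.05. SE is the absolute log2 fold change over the root of F. Ratios of neighbouring IDs with the same prefix were tested with limma 3.58.1 (trend) on log2 CPM with a prior count of 2, which shrinks ratios of low IDs. The summed level was tested by exact permutation. Alternatives were other scalings (RLE, upper quartile, library totals, mitochondrial total), filters, DESeq2 1.42.0, limma-voom, limma on log2(FPKM + 1) and log2(FPKM + 0.1), a replicate block and leaving out each library. Scripts were tested on simulated data.

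No sequences are shown. Replicates differed by far more than counting noise, so none was counted as a duplicate. Chi-square per degree of freedom was 9.65 to 40.0 between levofloxacin libraries. Between controls it was 198 and 118 for the pairs with replicate 1, and 58.9 for replicates 2 and 3.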

Additional observations from a re-analysis of the deposited data

How the results depend on the processing

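Of the 11 calls, all kept their direction in each alternative in which they were tested. RLE, upper-quartile and library-total scaling, no filter, DESeq2, limma-voom, both FPKM fits and the replicate block kept all 11 and gave 6 to 8 higher and 5 lower, against 8.56% to 13.7% and 8.56% to 16.1% of all tested IDs (most with DESeq2). Scaling to the mitochondrial total left 3 lower. A minimum of 10 counts in every library left CzMTg00057 untested. With the replicate block 8 IDs rose (CzMTg00053 and CzMTg00080 added) and 5 fell, against 9.54% and 10.7% of all tested IDs, and 10 neighbouring pairs passed, against 15.9% of all pairs (CzMTg00130 over CzMTg00120 lost). Same-numbered libraries deviated together with correlations of 0.16, 0.05 and 0.04 across all IDs (replicates 1, 2 and 3). In 2 of the 3 numbers a library correlated better with another number. Across the mitochondrial IDs alone the correlations were 0.16, 0.33 and -0.0039. With 3 libraries per group, these values cannot decide whether same-numbered libraries shared a batch, and the sources used here give only the shared number. Leaving out 1 library gave 1 to 10 higher, 3 to 5 lower and 2 to 12 passing pairs.

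The summed mitochondrial CPM was 5.80 higher with levofloxacin, and no alternative could pass the threshold, since the smallest possible p is 0.10 with 3 and 3 libraries and no lower with fewer. The difference was -26.6 without CzMTg00080, the ID with the most reads, and ran from -34.8 to 51.5 with 1 library left out. With the replicate block it was 5.80 (exact permutation, p = 0.75, smallest possible 0.25). Signs also turned, without passing, for CzMTg00010 (0.020 without control replicate 1, lowest -0.36), CzMTg00100 (-0.0015 and -0.20, highest 0.41) and the log2 ratios of CzMTg00070 over CzMTg00060 (0.24 without control replicate 1, lowest -0.71), CzMTg00080 over CzMTg00070 (0.31 without control replicate 3, lowest -0.73), CzMTg00170 over CzMTg00150 (0.13 without levofloxacin replicate 3, lowest -0.54) and CzMTg00230 over CzMTg00170 (0.063 without control replicate 1, lowest -0.27). The cause was not tested. Precision was limited by the 3 replicates of each group and, for CzMTg00057, by 6 and 8 reads in the controls outside replicate 1.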
